A study of Homo sapiens with 8 samples.

Results

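The MYC family and its MAX network are helix-loop-helix leucine zipper transcription factors that compete for the same partner and the same DNA. MYC, MYCN and MYCL each pair with MAX, bind the E-box CACGTG and recruit histone acetylase complexes that raise transcription of genes for ribosome assembly, nucleotide supply and cell cycle entry. MXD1, MXI1 (also called MXD2), MXD3, MXD4 and MNT pair with MAX as well, bind the same E-box and recruit SIN3 and histone deacetylases that repress transcription, and MGA joins MAX to a variant Polycomb complex. MYC is a short-lived mRNA and protein and is known in breast cancer for frequent gain. The network was listed as 10 genes, and each was read by the brightest of the array's probe sets that were annotated to that gene symbol alone. On this rule 9 of the 10 genes were measured, with 29 probe sets among them, out of 19775 genes on the array. MXD4 is not analysed here, because its 3 probe sets also carried another gene symbol.

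The cells were MDA-MB-453, 1 established human breast cancer line that lacks the estrogen receptor. All groups had spent 3 days in medium free of phenol red with 5% serum stripped of steroids by charcoal and dextran. The groups were vehicle and 10 nM 5α-dihydrotestosterone (DHT, the most active androgen of the body) for 4 h, 16 h and 48 h, with 2 arrays each that the labels call biological replicates. The comparisons ask how the expression of these genes moved over the time course of androgen treatment. No time is stated for the vehicle arrays, so an effect of DHT and one of time in culture cannot be told apart, and the 3 comparisons with vehicle share the same 2 control arrays. All values are log2 signals after the submitters' robust multi-array average (RMA), and levels are not compared between probe sets. Since RNA was taken from bulk cells, a change in RNA per cell and a change in the share of cells that express a gene cannot be told apart.

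Over the whole array, median log2 signals lay between 7.59 and 7.63 per array and replicates correlated across genes at r = 0.995 to 0.997, as a description, since genes are not independent replicates. The 6 measured luminal markers had medians of 12.08 to 14.17, and the estrogen and progesterone receptor genes (ESR1 and PGR) had medians of 8.48 and 7.38. Medians ran from 6.351 to 10.597 for the mesenchymal, 7.611 to 8.504 for the immune and 5.002 to 9.358 for the endothelial markers. For the basal markers they were 5.969 and 8.167. As levels are not compared between probe sets, these medians do not test the identity of the cells. Of the luminal markers 0 were called at 4 h, 2 at 16 h and 3 at 48 h, beside 0.177%, 6.85% and 9.51% of all genes. At 48 h the keratin KRT19 was higher by 0.68, and ERBB2 and FOXA1 gave -0.65 and -0.72. Of the 7 measured mesenchymal, immune and endothelial markers, 0 were called against vehicle at any time. Of the 2 measured basal markers, KRT5 rose by 0.51 at 48 h, a call lost without vehicle replicate 1 or DHT 48 h replicate 1. FKBP5, a classical androgen target used as a check of treatment, was 1.97-fold higher at 4 h, 5.48-fold at 16 h and 10.1-fold at 48 h than in vehicle. Its 4 h call was lost without either 4 h array and with the mean of its probe sets. With 1 array left out, its 4 h log2 change ran from 0.91 to 1.05. DHT 16 h replicate 2 stood apart: its 3′ minus 5′ control difference, a sign of RNA length, was 1.52 for ACTB against 0.203 to 0.945 on the other arrays. For GAPDH it was 0.817 against 0.185 to 0.349. The next highest ACTB difference, 0.945, was that of DHT 48 h replicate 2, whose GAPDH difference was 0.319. For members and many named genes, the text states where a 16 h call against vehicle was lost without DHT 16 h replicate 2. The medians of the E-box sets, the profile correlations and the differences between times of genes other than members are given only with it.

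MYC was the member with the largest change and rose at every time, most at 4 h. MYCN fell at 4 h by its brightest probe set alone, and MYCL did not pass the test. The other 9 MYCN probe sets gave changes of -0.01 to 0.18 at 4 h. At 16 h the repressors split: MXI1 and MNT rose and MXD1 fell, and at 48 h MXD1 and MXD3 were lower. MAX and MGA passed the test at no time. A gene was called at a Benjamini-Hochberg adjusted p below 0.05 from limma over all 19775 genes, and errors of a change are its standard errors. Against vehicle, 2 of the 9 measured members were called at 4 h, 4 at 16 h and 3 at 48 h. Over all genes, 0.177% were called at 4 h, 6.85% at 16 h and 9.51% at 48 h. By an F test over the 3 times, 5 of the 9 were called (MYC, MYCN, MXD1, MXI1 and MNT), against 8.90% of all genes. The 2 arrays of DHT did not overlap with those of vehicle for 5 members at 4 h, 8 at 16 h and 6 at 48 h. Such separation is common with 2 arrays per group: it held for 40.2%, 47.0% and 51.8% of all genes at 4, 16 and 48 h.

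**Figure D1:**
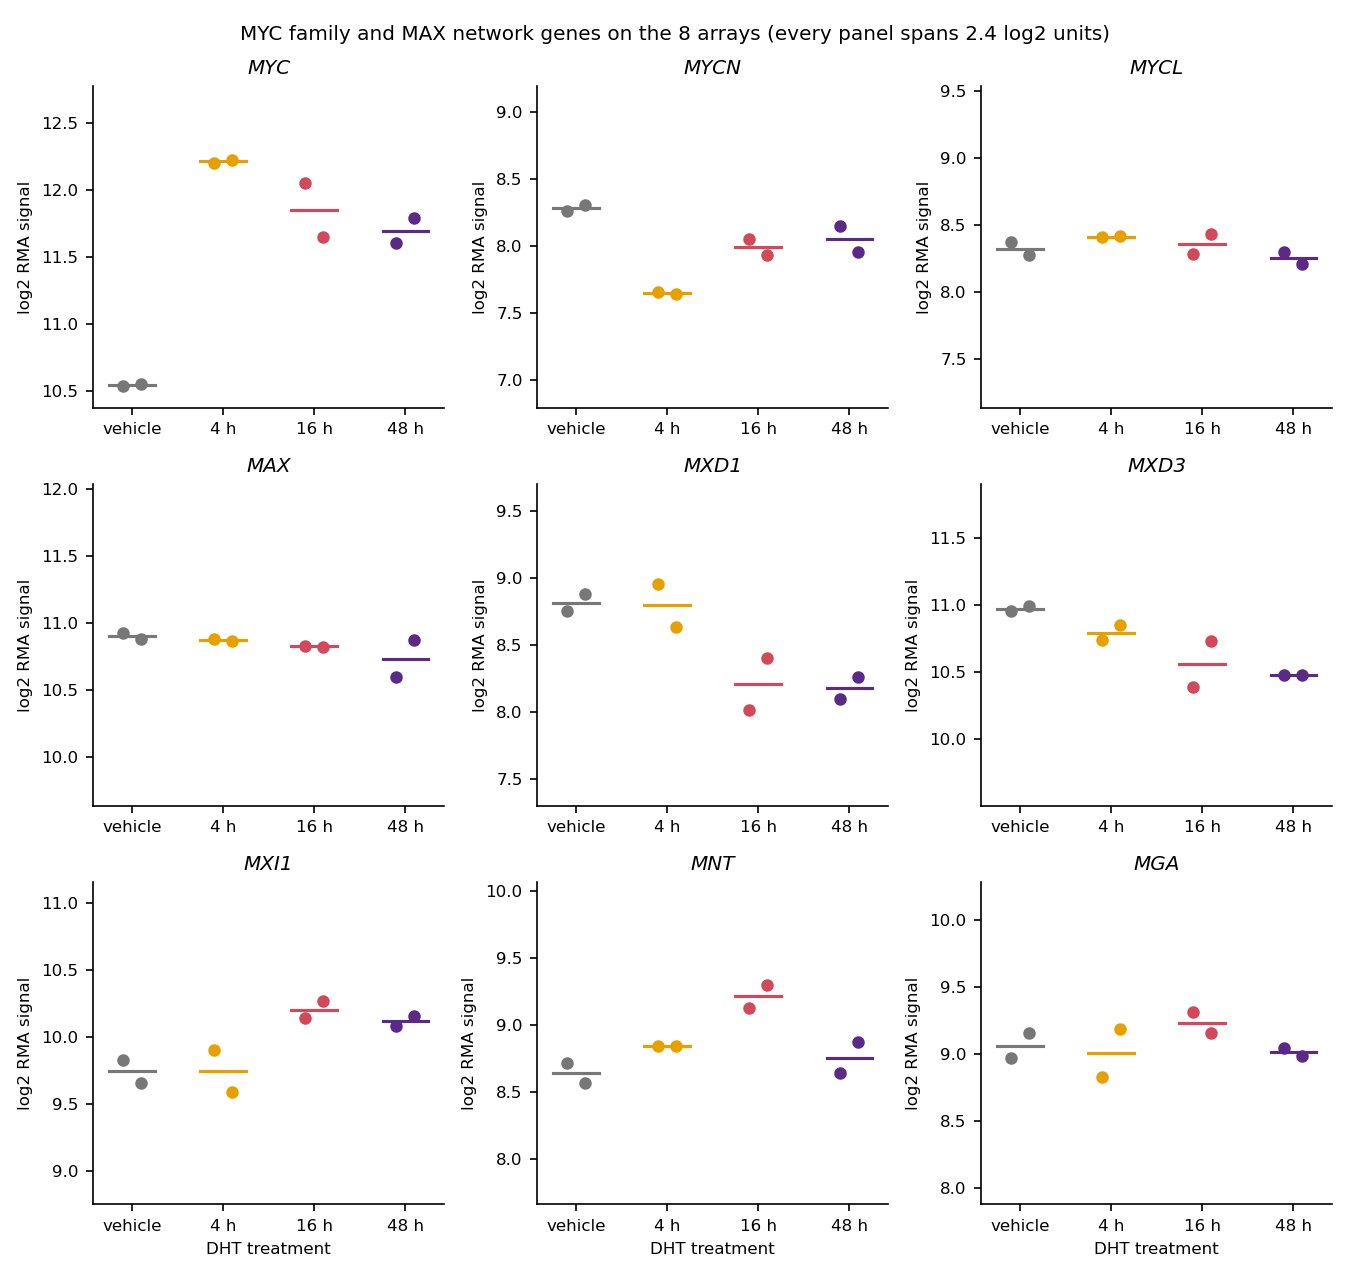
Log2 RMA signal (vertical axes, all of the same height in log2 units) of the 9 measured genes on each of the 8 arrays, by treatment (horizontal axes); points are arrays and horizontal bars are group means. MYC lies between 11.60 and 12.22 in all DHT arrays and at 10.54 and 10.55 in vehicle, and MYCN has its lowest 2 arrays at 4 h.

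MYC, the most widely used activator of the family, read 10.54 and 10.55 on the vehicle arrays, 12.20 and 12.22 after 4 h of DHT, 12.05 and 11.65 after 16 h, and 11.60 and 11.79 after 48 h. All 6 DHT arrays lay above both vehicle arrays, and the 4 h arrays were the highest of all. Against vehicle, MYC rose by 1.67 ± 0.13 at 4 h (SE, n = 2 each, 3.18-fold, limma adjusted p = 0.000244). At 16 h it was higher by 1.31 ± 0.13 (2.47-fold, limma adjusted p = 0.000113) and at 48 h by 1.15 ± 0.13 (2.22-fold, limma adjusted p = 0.00016). The order of its levels was therefore 4 h, 16 h, 48 h and vehicle. Both 16 h arrays lay below both 4 h arrays, with a difference of -0.36 (95% interval -0.64 to -0.08) that did not pass adjustment (limma adjusted p = 0.193, and 0.02 without DHT 16 h replicate 1). The arrays of 48 h and 16 h overlapped, with a difference of -0.16 (limma adjusted p = 0.761). The 48 h level was lower than the 4 h level by a log2 change of -0.52 ± 0.13 (limma adjusted p = 0.0337) in a comparison added after the values were seen. That last call was lost when either vehicle, 4 h or 48 h array was left out, with adjusted p up to 0.259. The rise against vehicle was called at all 3 times with any of the 8 arrays left out, with adjusted p at most 0.0106. MYC is read by a single probe set, 202431_s_at, so no other probe set checks it.

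MYCN, the paralogue best known from neuroblastoma, read 8.26 and 8.31 on the vehicle arrays, 7.66 and 7.65 at 4 h, 8.05 and 7.94 at 16 h, and 8.15 and 7.96 at 48 h. Every DHT array was below both vehicle arrays, and the 4 h arrays were lowest. The 4 h values lay close to the median signals of whole arrays, 7.59 to 7.63. This signal was dim, and whether it stands above background was not tested. MYCN fell at 4 h by a log2 change of -0.63 ± 0.10 (SE, n = 2 each, limma adjusted p = 0.0309), while the differences of -0.29 at 16 h and -0.23 at 48 h did not pass. The 48 h level was above the 4 h level by 0.40 ± 0.10 (limma adjusted p = 0.034, added after the values were seen).

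The fall at 4 h was seen by 1 of the 10 MYCN probe sets. The other 9 gave changes between -0.01 and 0.18 at 4 h, with mean signals of 4.52 to 7.68, all below that of the one used. The call was lost without either vehicle array, either 4 h array or either 48 h array (adjusted p up to 0.397), and was kept without either 16 h array. Read through the brightest probe set that is neither of the _s_at nor the _x_at kind, which can match several transcripts, MYCN differed by 0.04 at 4 h.

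MYCL, the paralogue first found in lung cancer, read 8.37 and 8.28 on the vehicle arrays, 8.41 and 8.42 at 4 h, 8.28 and 8.43 at 16 h, and 8.30 and 8.21 at 48 h. Its groups ran together, and the 95% intervals of its changes were -0.12 to 0.30 at 4 h, -0.17 to 0.24 at 16 h and -0.28 to 0.14 at 48 h. Its other probe set differed by 0.02, 0.02 and 0.07 at the 3 times. Whether the MYCL signal stands above background was likewise not tested.

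**Figure D2:**
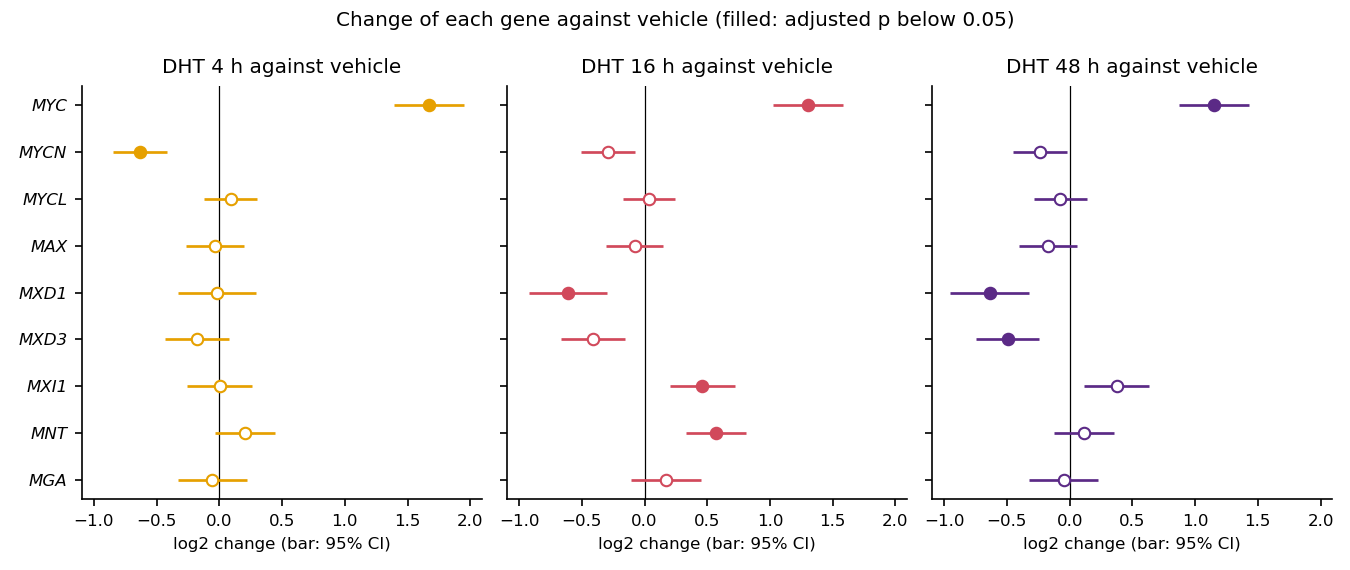
Log2 change against vehicle (horizontal axes) at 4, 16 and 48 h for the 9 measured genes, with 95% confidence intervals from limma; filled points have an adjusted p below 0.05. MYC is at 1.67, 1.31 and 1.15, MXD1 at -0.61 and MNT at 0.57 at 16 h, and the interval of MAX spans 0 at all 3 times.

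MAX, a partner of all the others, read 10.93 and 10.89 on the vehicle arrays, 10.89 and 10.86 at 4 h, 10.83 and 10.83 at 16 h, and 10.60 and 10.88 at 48 h. Only DHT 48 h replicate 1 sat apart from the remaining arrays of this probe set. The changes were -0.03 at 4 h, -0.08 at 16 h and -0.17 ± 0.10 at 48 h (SE, n = 2 each, limma adjusted p = 0.379), with a 95% interval of -0.40 to 0.06 at 48 h. MAX had 4 other probe sets, and 2 of them, both of the _x_at kind, showed 1 array far below the rest. Probe set 208403_x_at read 7.36 in DHT 16 h replicate 2 and 8.44 to 8.94 on the other 7 arrays. Probe set 210734_x_at read 8.51 there and 9.62 to 10.03 elsewhere. This is the array with the large 3′ minus 5′ control difference, and the part of RNA quality in the dip was not tested. The other probe sets of MAX on the same array did not dip in this way: 209332_s_at read 10.83, 209331_s_at 10.36 and 214108_at 7.31.

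MXD1, a repressor that rises as many cell types differentiate, read 8.76 and 8.88 on the vehicle arrays, 8.96 and 8.64 at 4 h, 8.02 and 8.40 at 16 h, and 8.10 and 8.27 at 48 h. The 4 arrays of 16 and 48 h were below all 4 arrays of vehicle and 4 h. MXD1 fell by a log2 change of -0.61 ± 0.14 at 16 h (SE, n = 2 each, limma adjusted p = 0.0256) and of -0.64 ± 0.14 at 48 h (limma adjusted p = 0.0152), and differed by -0.02 at 4 h. The 48 h level was also below the 4 h level, by -0.62 ± 0.14 (limma adjusted p = 0.0252, added after the values were seen). The difference between 16 h and 4 h, -0.59 ± 0.14, had an adjusted p of 0.0518 from limma, just above the threshold.

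Both other probe sets of MXD1 pointed downwards at the later times, with changes of -0.23 and -0.15 at 16 h and -0.46 and -0.27 at 48 h, none of them called. The call at 16 h was lost without either vehicle array or DHT 16 h replicate 1 (adjusted p up to 0.12). The call at 48 h was lost without either vehicle array or DHT 48 h replicate 1 (adjusted p up to 0.156).

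MXD3, a repressor tied to S phase and proliferation in mouse tissues, read 10.95 and 10.99 on the vehicle arrays, 10.74 and 10.85 at 4 h, 10.39 and 10.74 at 16 h, and 10.48 and 10.48 at 48 h. Every DHT array was below both vehicle arrays. MXD3 fell by a log2 change of -0.49 ± 0.12 at 48 h (SE, n = 2 each, limma adjusted p = 0.0194), and the changes of -0.18 at 4 h and -0.41 at 16 h (adjusted p = 0.0567) did not pass. The 48 h call was lost when either vehicle or either 48 h array was left out (adjusted p up to 0.123). Without DHT 16 h replicate 2 the 16 h change passed, with an adjusted p of 0.0109.

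MXI1, a repressor that is antagonistic to MYC in growth control and is also a hypoxia-responsive gene, moved the other way from MXD1 and MXD3. It read 9.83 and 9.66 on the vehicle arrays, 9.90 and 9.59 at 4 h, 10.14 and 10.26 at 16 h, and 10.08 and 10.15 at 48 h. The 4 arrays of 16 and 48 h were above all 4 arrays of vehicle and 4 h. MXI1 rose by 0.46 ± 0.12 at 16 h (SE, n = 2 each, 1.38-fold, limma adjusted p = 0.0399), and the difference of 0.37 ± 0.12 at 48 h did not pass (limma adjusted p = 0.0757). The 16 h call was lost without either vehicle array, either 48 h array or DHT 16 h replicate 2, with adjusted p up to 0.178. A single probe set, 202364_at, reads MXI1.

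MNT, a widely expressed repressor that holds MYC targets down in resting cells, read 8.71 and 8.57 on the vehicle arrays, 8.85 and 8.84 at 4 h, 9.13 and 9.30 at 16 h, and 8.64 and 8.87 at 48 h. The 16 h arrays were above all others, and the 48 h arrays overlapped with vehicle. MNT rose by 0.57 ± 0.11 at 16 h (SE, n = 2 each, 1.49-fold, limma adjusted p = 0.00871), against 0.20 at 4 h and 0.12 at 48 h, neither called. The drop between the later times, 48 h minus 16 h, was -0.46 ± 0.11 with an adjusted p of 0.104 from limma. The call at 16 h was lost without vehicle replicate 2 or without DHT 16 h replicate 2 (adjusted p up to 0.0665). The other MNT probe set differed by 0.08 at 16 h, so the rise was read by 1 of 2 probe sets.

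MGA, the largest of the proteins that bind MAX, read 8.98 and 9.16 on the vehicle arrays, 8.83 and 9.19 at 4 h, 9.31 and 9.16 at 16 h, and 9.05 and 8.99 at 48 h. Its groups lay close together, and its changes were -0.06, 0.17 and -0.05 at 4, 16 and 48 h, with a 95% interval of -0.10 to 0.45 at 16 h. Of the 20 probe sets of members that were not the brightest, 0 were called in any comparison when all 54613 probe sets were fitted together with limma. At an unadjusted p below 0.05 the count was 0 at 4 h, 0 at 16 h and 2 at 48 h against vehicle. In that fit 0.0183% of all probe sets were called at 4 h, 2.51% at 16 h and 3.97% at 48 h.

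**Figure D3:**
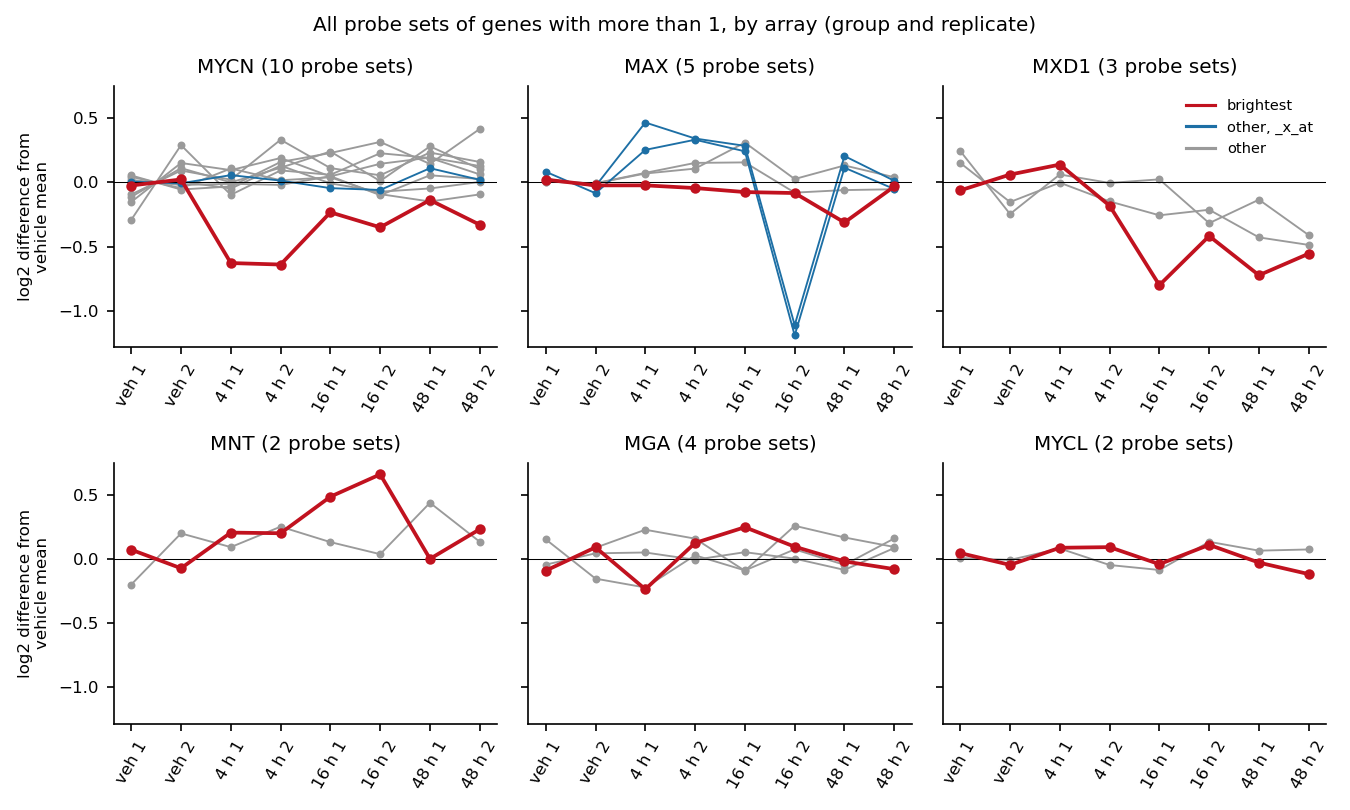
Log2 difference from the vehicle mean (vertical axes) on each of the 8 arrays (horizontal axes) for every probe set of the 6 members with more than 1; red is the brightest probe set, blue another of the _x_at kind and grey the rest. Only the brightest of 10 MYCN probe sets drops at 4 h, and the pair of _x_at probe sets of MAX drops on DHT 16 h replicate 2.

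Between times, 0 of 9 members were called by limma for 16 h against 4 h (5 at an unadjusted p below 0.05), where 3.05% of all genes were called. For 48 h against 16 h it was likewise 0 of 9 (1 at an unadjusted p below 0.05), against 0.829% of all genes. For 48 h against 4 h, the comparison added after the values were seen, 3 of 9 were called, with MYCN higher and MYC and MXD1 lower, against 6.13% of all genes.

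The promoter of MNT is shown because it holds the E-box that the network itself binds. Windows of 300 bases, from 250 before to 50 after each annotated start, were taken from RefSeq (GRCh38.p14). They were searched for CACGTG, which reads the same on both strands. There were 14 windows for 9 of the 10 listed genes. MYC had no window, so its promoter was not searched. MNT and MXD4 each held 1 match. Over all genes with a window, 8.77% held CACGTG. In the MNT window, chr17:2401011-2401310 on the minus strand, the match in capitals lies 193 bases before the start.
MNT promoter: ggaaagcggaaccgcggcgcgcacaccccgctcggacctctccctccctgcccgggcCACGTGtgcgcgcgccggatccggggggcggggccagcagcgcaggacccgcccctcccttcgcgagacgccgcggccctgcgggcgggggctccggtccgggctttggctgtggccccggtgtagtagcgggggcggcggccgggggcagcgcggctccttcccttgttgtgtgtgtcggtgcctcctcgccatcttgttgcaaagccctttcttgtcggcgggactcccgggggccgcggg
A match is a description of the letters and not a binding site.

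Genes that MYC is known to induce were, as a list, shifted upwards at each time. The list holds 62 ribosome assembly, metabolic and cell cycle genes, of which 54 were measured. At 4 h 3 rose and 0 fell, at 16 h 21 rose and 4 fell, and at 48 h 8 rose and 3 fell. Over all genes the share called higher was 0.106%, 2.55% and 3.13% at 4, 16 and 48 h, and the share called lower was 0.0708%, 4.30% and 6.38%. The median log2 change of the list was 0.20 at 4 h, 0.27 at 16 h and 0.18 at 48 h, beside 0.00, 0.02 and 0.01 for all genes. On single arrays the list's median difference from the vehicle mean was 0.17 and 0.21 at 4 h, 0.25 and 0.29 at 16 h, and 0.13 and 0.22 at 48 h. All 6 DHT arrays were thus above the vehicle arrays, which read -0.015 and 0.015.

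The 3 genes that rose at 4 h serve the nucleolus and RNA modification. NOP16, a nucleolar protein, rose by 0.67 ± 0.10, PUS1, a pseudouridine synthase, by 0.66 ± 0.10, and BYSL, needed for assembly of the small ribosomal subunit, by 0.64 ± 0.10 (SE, n = 2 each, limma adjusted p = 0.022, 0.022 and 0.0257). All 3 were higher at 16 h too, by 0.69, 0.56 and 0.79, and those 16 h calls held with any array left out. The 4 h calls of all 3 were lost without either array of vehicle, 4 h or 48 h. The largest rise at 16 h was in WDR43, a ribosome assembly factor, at 0.82 ± 0.15 (limma adjusted p = 0.00747), lost without vehicle replicate 1 or DHT 16 h replicate 2. At 48 h SLC29A2, a nucleoside transporter, was higher by 0.62 ± 0.11, and HK2, the hexokinase that starts glycolysis, by 0.56 ± 0.10 (limma adjusted p = 0.00328 and 0.00461). The HK2 call was lost without vehicle replicate 1. Without _s_at and _x_at probe sets, NOP16 lost its 4 h call (0.51, limma adjusted p = 0.161) and SLC29A2 its 48 h call (0.46, limma adjusted p = 0.0909).

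The 4 listed genes that fell at 16 h all belong to the cell cycle; PLK4 and MCM5 among them were named after their values were seen. MCM4, a subunit of the replicative helicase, fell by -0.70 ± 0.10 at 16 h and -0.52 ± 0.10 at 48 h on the log2 scale (limma adjusted p = 0.00201 and 0.00882). PLK1, a mitotic kinase, fell by -0.63 ± 0.11 and -0.86 ± 0.11 (limma adjusted p = 0.00597 and 0.000516). PLK4, which starts centriole duplication, gave -0.52 and -0.48, both called. MCM5, another helicase subunit, gave -0.39 at 16 h alone. The MCM4 call at 48 h was lost without vehicle replicate 1 or DHT 48 h replicate 1. Read through its brightest probe set of neither the _s_at nor the _x_at kind, MCM4 gave -1.24 at 16 h and 0.07 at 48 h. The calls of PLK4 were lost without vehicle replicate 1 at 16 h and DHT 48 h replicate 1 at 48 h. The MCM5 call was lost without either array of vehicle or 4 h, without DHT 16 h replicate 1, or without _s_at and _x_at probe sets. The counts depended on single arrays: without vehicle replicate 1 the list had 8 calls at 16 h and 5 at 48 h, in place of 25 and 11. Without DHT 16 h replicate 2 it had 15 calls at 16 h, and without either 48 h array 6 at 48 h.

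The E-box was common in the windows of these genes: 28 of 50 genes with a window held CACGTG, 56.0%, against 8.77% of all genes. The MYC-induced list was drawn up from known MYC targets, so this share is not independent of MYC binding. At 16 h, 13 of 26 measured genes with the motif were called higher and 5 of 20 without it, with median log2 changes of 0.38 and 0.19. Over all genes, 2.55% were called higher at 16 h. At 4 h the medians were 0.22 with the motif and 0.18 without it, and at 48 h 0.18 and 0.17. The difference between the sets was not tested. Of the 13 genes that held CACGTG and were higher at 16 h, the sites of 12 are given below as 30 bases each, 5′ to 3′ on the gene's strand, with the E-box in capitals, so that their flanks can be compared.
WDR43 (chr2:28894658-28894687, plus strand, E-box 3 bases after the start): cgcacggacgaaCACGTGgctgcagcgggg
BYSL (chr6:41921515-41921544, plus strand, E-box 28 bases after the start): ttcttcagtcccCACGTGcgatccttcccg
ODC1 (chr2:10447990-10448019, minus strand, E-box 5 bases after the start): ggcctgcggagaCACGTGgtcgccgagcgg
DUSP2 (chr2:96145536-96145565, minus strand, E-box 113 bases before the start): cagactgcgcccCACGTGaggggcgggggc
RRP9 (chr3:51941892-51941921, minus strand, E-box 5 bases before the start): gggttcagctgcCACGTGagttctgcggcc
PES1 (chr22:30591880-30591909, minus strand, E-box 13 bases after the start): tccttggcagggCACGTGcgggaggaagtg
HK2 (chr2:74835009-74835038, plus strand, E-box 149 bases before the start): ttccggcgagagCACGTGgagagaatcgtg
SRM (chr1:11060200-11060229, minus strand, E-box 199 bases before the start): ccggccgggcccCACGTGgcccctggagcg
HSPE1 (chr2:197500345-197500374, plus strand, E-box 22 bases before the start): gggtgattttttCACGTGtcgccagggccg
LDHA (chr11:18394464-18394493, plus strand, E-box 87 bases before the start): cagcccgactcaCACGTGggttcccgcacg
EXOSC5 (chr19:41397328-41397357, minus strand, E-box 14 bases after the start): caactgcagccgCACGTGggctcggcgcga
DCTPP1 (chr16:30429792-30429821, minus strand, E-box 9 bases before the start): ggagggttcctcCACGTGgtcgggaagcgg
The 16 h changes of these 12 genes ran from 0.38 in DCTPP1 to 0.82 in WDR43. With 1 array left out at a time, the calls of BYSL, ODC1 and DUSP2 held in all 8 fits, while EXOSC5 was called in 4, HSPE1 in 2, and RRP9 and DCTPP1 in 1 each. ODC1, the first enzyme of polyamine synthesis and a textbook MYC target, had its E-box 5 bases after the annotated start and rose by 0.65 ± 0.10 (SE, n = 2 each, limma adjusted p = 0.00232). LDHA, which turns pyruvate into lactate, had its E-box 87 bases before the start and rose by 0.43 ± 0.09 (limma adjusted p = 0.0105). SRM, the spermidine synthase that acts after ODC1, had its E-box 199 bases before the start and rose by 0.48 ± 0.09 (limma adjusted p = 0.0105). The LDHA call was lost without either vehicle array and the SRM call without vehicle replicate 1, while ODC1 held without any single array (adjusted p at most 0.0251).

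**Figure D4:**
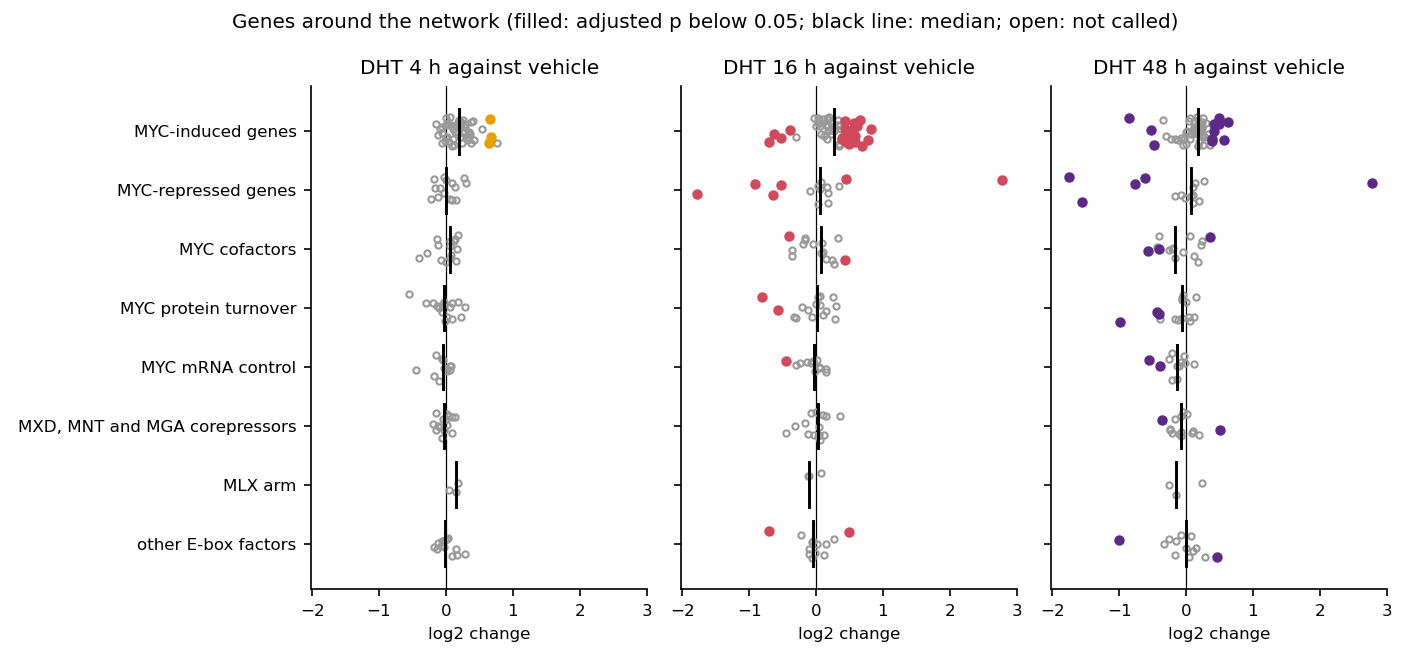
Log2 change against vehicle (horizontal axes) at 4, 16 and 48 h for the measured genes of 8 lists around the network (rows); each point is a gene, filled points have an adjusted p below 0.05 and black lines are medians. MYC-induced genes have medians of 0.20, 0.27 and 0.18, and 6 of the 15 MYC-repressed genes are filled at 16 h and 5 at 48 h.

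Genes that MYC is known to repress did not move together. Of 15 measured, 0 were called by limma at 4 h (1 at an unadjusted p below 0.05), 2 rose and 4 fell at 16 h, and 1 rose and 4 fell at 48 h. Over all genes, 0.177% were called at 4 h. At 16 h 2.55% of all genes were called higher and 4.30% lower, and at 48 h 3.13% and 6.38%. The median of the list was 0.00, 0.06 and 0.08 at 4, 16 and 48 h, beside 0.00, 0.02 and 0.01 for all genes. NDRG1, a differentiation and hypoxia gene, rose by 2.78 ± 0.13 at 16 h and by 2.78 ± 0.13 at 48 h (SE, n = 2 each, limma adjusted p = 2.83e-07 and 1.83e-07). THBS1, a matrix protein that inhibits angiogenesis, gave -1.79 ± 0.15 and -1.75 ± 0.15 (limma adjusted p = 3.2e-05 and 2.05e-05). CLU, a secreted chaperone, gave -0.92 ± 0.10 and -1.55 ± 0.10 (limma adjusted p = 0.000245 and 2.15e-06). These 6 calls held with any array left out. Outside the rule for naming and with their values seen, CDKN1A (p21) fell by -0.64 ± 0.12 at 16 h and -0.61 ± 0.12 at 48 h, and CDKN1B (p27) by -0.53 ± 0.12 and -0.77 ± 0.12. Both are inhibitors of cyclin-dependent kinases and textbook MYC-repressed genes. The CDKN1A calls were lost without vehicle replicate 2 and the later one also without DHT 48 h replicate 1, and the 16 h call of CDKN1B was lost without either vehicle array or DHT 16 h replicate 1. TXNIP, which binds thioredoxin and curbs glucose uptake, rose by 0.45 ± 0.09 at 16 h, a call lost without vehicle replicate 1.

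Among 15 measured cofactors that MYC works with, 1 rose and 1 fell at 16 h, and 1 rose and 2 fell at 48 h, beside 6.85% and 9.51% of all genes called in either direction, with medians of 0.06, 0.08 and -0.17 at 4, 16 and 48 h. RUVBL1, an ATPase of chromatin complexes bound by MYC, rose by 0.43 ± 0.10 at 16 h (SE, n = 2 each, limma adjusted p = 0.0215). KAT5 (TIP60), a histone acetylase, fell by -0.41 ± 0.10 at 16 h and -0.57 ± 0.10 at 48 h (limma adjusted p = 0.0296 and 0.00348). SMARCB1, a SWI/SNF subunit that binds MYC, fell by -0.40 at 48 h, and BIN1, which binds and restrains MYC, rose by 0.35. The KAT5 call at 48 h held with any array left out. The 16 h calls of RUVBL1 and KAT5 were lost without either vehicle array or DHT 16 h replicate 2, and the calls of SMARCB1 and BIN1 without either vehicle or either 48 h array. KAT5 and BIN1 were read by _x_at probe sets, and without the _s_at and _x_at kinds SMARCB1 gave -0.08 (limma adjusted p = 0.77). In that setting 0 cofactors were called at 16 h and 0 at 48 h.

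Of 15 measured corepressor genes of the MXD, MNT and MGA proteins, 0 were called by limma at 16 h (2 at an unadjusted p below 0.05), and 1 rose and 1 fell at 48 h. Over all genes, 6.85% were called at 16 h and 9.51% at 48 h. SAP30, a SIN3 complex subunit, rose by 0.51 ± 0.10 (SE, n = 2 each, limma adjusted p = 0.00767), lost without vehicle replicate 2 or DHT 48 h replicate 2. It was read by an _x_at probe set, and the brightest one of neither the _s_at nor the _x_at kind gave -0.07. E2F6, which joins MGA in the variant Polycomb complex, fell by -0.35 ± 0.10 (limma adjusted p = 0.0393), lost without any 1 of the 6 arrays of vehicle, 4 h and 48 h. The medians of the list were -0.03, 0.02 and -0.07 at the 3 times. At 4 h, 0 genes were called in the lists of cofactors, corepressors, MYC protein turnover, MYC mRNA control, other E-box factors and MLX, the MAX-like partner, with its glucose-sensing partners. At an unadjusted p below 0.05, those lists held 0, 0, 3, 1, 1 and 0 genes at 4 h. The share of all genes called at 4 h was 0.177%. The 3 genes of the MLX arm were called at no time against vehicle.

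Of 16 measured genes for MYC protein turnover, which set how long the protein lasts, 0 rose and 2 fell at 16 h, and 0 rose and 3 fell at 48 h. Over all genes, too, more were called lower than higher: 4.30% against 2.55% at 16 h and 6.38% against 3.13% at 48 h. AURKA, a mitotic kinase that also stabilises MYCN, fell by -0.81 ± 0.18 at 16 h and -0.98 ± 0.18 at 48 h (SE, n = 2 each, limma adjusted p = 0.022 and 0.00557). FBXW7, the ubiquitin ligase subunit that marks MYC for degradation, fell by -0.56 ± 0.12 at 16 h (limma adjusted p = 0.0152). SENP1, a SUMO protease, and GSK3B, the kinase that primes MYC for FBXW7, fell by -0.43 ± 0.10 and -0.40 ± 0.10 at 48 h (limma adjusted p = 0.019 and 0.0318). The 16 h calls of AURKA and FBXW7 and the 48 h calls of SENP1 and GSK3B were lost without either vehicle array. Read through its brightest probe set of neither the _s_at nor the _x_at kind, AURKA gave -0.14 at 16 h (limma adjusted p = 0.573) and -0.28 at 48 h (limma adjusted p = 0.169). The AURKA calls were also lost without DHT 16 h replicate 1 at 16 h and DHT 48 h replicate 1 at 48 h, that of FBXW7 without DHT 16 h replicate 2, that of SENP1 without DHT 48 h replicate 1, and that of GSK3B without either 4 h or 48 h array. Of 12 genes that act on MYC transcription or mRNA, ZFP36L1, an mRNA decay factor, fell at 16 h by -0.45 ± 0.10 (limma adjusted p = 0.0175). TCF7L2, a WNT pathway factor, and HNRNPD, an RNA-binding decay factor, fell at 48 h by -0.56 ± 0.14 and -0.39 ± 0.10 (limma adjusted p = 0.0292 and 0.0329). These 3 calls were lost without either vehicle array, that of ZFP36L1 also without DHT 16 h replicate 1, and those of TCF7L2 and HNRNPD also without either 48 h array. Without _s_at and _x_at probe sets, ZFP36L1 gave -0.21 (limma adjusted p = 0.279) and HNRNPD -0.51 (limma adjusted p = 0.0822).

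Among 13 other factors that bind E-boxes, 1 rose and 1 fell at 16 h and likewise at 48 h, beside 6.85% and 9.51% of all genes called in either direction. MITF, the melanocyte and lysosome regulator, fell by -0.71 ± 0.12 at 16 h and -1.01 ± 0.12 at 48 h (SE, n = 2 each, limma adjusted p = 0.00476 and 0.000292). SREBF1, the regulator of lipid synthesis, rose by 0.50 ± 0.10 and 0.47 ± 0.10 (limma adjusted p = 0.0109 and 0.0115). The MITF calls held with any array left out, and those of SREBF1 were lost without either vehicle array, and also without DHT 16 h replicate 2 at 16 h and DHT 48 h replicate 1 at 48 h.

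The genes whose profile was most like that of MYC were ranked by Pearson's r over the 8 arrays among 291 genes whose group means spanned at least 1 log2 unit. As a description over arrays that fall into 4 groups, CARMIL1, which acts on the actin cytoskeleton, had r = 0.853. EAF2, a partner of elongation factors, had r = 0.794, NFKBIA, the inhibitor of NF-kB, r = 0.772, TOX3, a chromatin protein, r = 0.764, and NRARP, a NOTCH feedback gene, r = 0.757. By group means, MYC was highest at 4 h and each of the 5 at 16 or 48 h. For 16 h against 4 h, the differences of NFKBIA and EAF2 were called, and those of CARMIL1, TOX3, NRARP and MYC were not (limma adjusted p = 0.193 for MYC). CARMIL1 read 10.77 and 10.23 at 16 h and 10.27 and 10.18 at 4 h, so its arrays overlapped. NFKBIA rose by 1.11 at 4 h, 1.77 at 16 h and 1.67 at 48 h, and CARMIL1 gave 0.75 at 4 h, not called, and rose by 1.03 and 0.97 at the later times. Without _s_at and _x_at probe sets, the 4 h change of NFKBIA was 0.54 and not called (limma adjusted p = 0.124).

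MXD1, the other member whose group means spanned most, had closer matches among 292 such genes. APOBEC3B, a cytidine deaminase, had r = 0.974, ALAS1, the first enzyme of heme synthesis, r = 0.962, MITF r = 0.960, GPR137C r = 0.959 and DLGAP5, a mitotic spindle protein, r = 0.957. APOBEC3B gave -0.21 at 4 h, not called, and fell by -1.09 at 16 h and -1.23 at 48 h. GPR137C fell most, by -1.80 and -1.73 at 16 and 48 h. Since the 5 genes were picked for likeness to MXD1, their shared shape is a description. At 4 h they were not called against vehicle, with changes of -0.25 to -0.02.

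**Figure D5:**
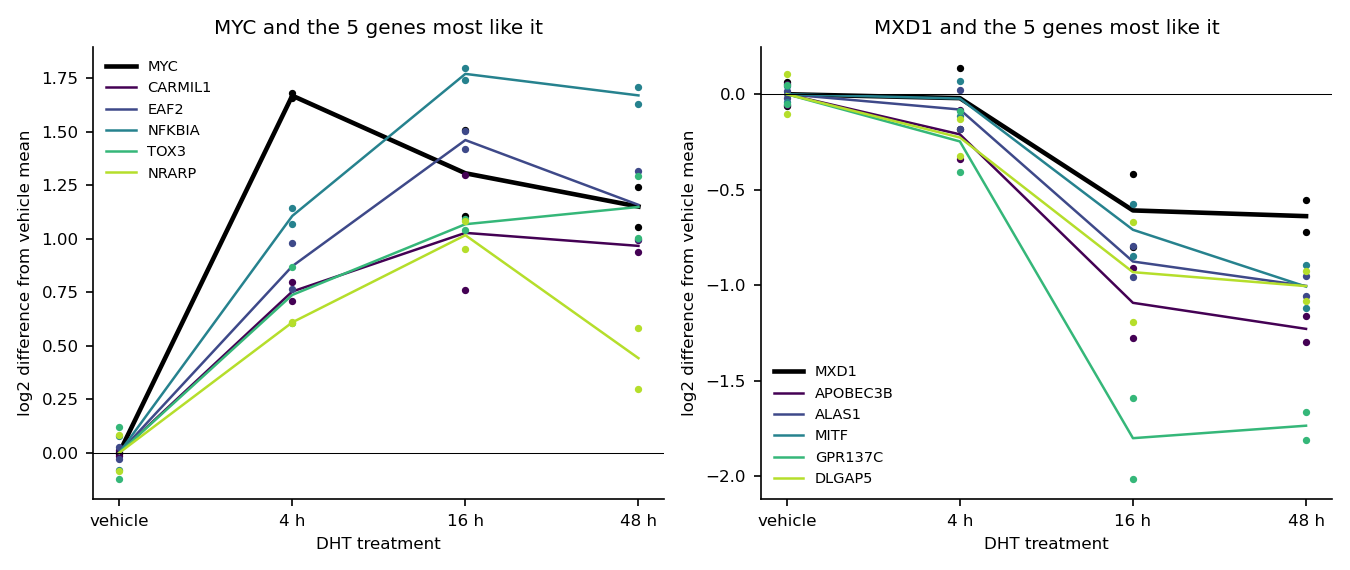
Log2 difference from the vehicle mean (vertical axes) in vehicle and after 4, 16 and 48 h of DHT (horizontal axes) for MYC and MXD1 (black) and the 5 genes with the most similar profile of each (colours); points are arrays and lines join group means. MYC is highest at 4 h, at 1.67, while its 5 neighbours peak at 16 or 48 h, and MXD1 and its neighbours are lower at 16 and 48 h.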

How the data were processed

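Total RNA of 8 cultures was hybridised to HG-U133 Plus 2.0 arrays, and the authors deposited 1 table of log2 signals for 54675 probe sets, normalised by RMA per the submitters' processing notes. Its version was not given in the sources used here. The table was used as deposited, without the raw scans. The values ran from 3.68 to 15.6 on the log2 scale, and the small number of arrays limits their precision.

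After removal of 62 control probe sets, 41091 probe sets had 1 gene symbol, 1801 several and 11721 none in the platform annotation. Each of 19775 genes was read by its brightest probe set of 1 symbol. Some listed genes are not analysed here.

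limma 3.58.1 in R 4.3.3 fitted 4 group means to all 8 arrays, with 4 residual and 7.21 prior degrees of freedom, two-sided tests and Benjamini-Hochberg adjustment over all genes of each comparison. An exact permutation test of 2 arrays against 2 has a smallest p of 0.333, and none was run. P-values measure the spread between these cultures. On data simulated for 16 h against vehicle with 19775 genes, the fit called 31 of 50 genes changed by 0.5 log2 units and 50 of 50 changed by 1. In the same run it also called 50 of 50 genes changed by 1.5 and 50 of 50 changed by 2. Beside these true calls, it called 19 unchanged genes. The simulated noise was normal and independent between genes, with the fitted spread of each gene, which real arrays need not follow.

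The members and the 8 lists of 156 genes around them (143 measured) were chosen with earlier results of these data known, and the lists are described by counts and medians only. The text names all members, up to 3 called genes per list and comparison with the largest change, the 5 genes most like MYC and MXD1 in profile, FKBP5 and AQP3 as a check of treatment, and the genes with an E-box that are shown by sequence. Genes named outside this rule are marked. The alternatives tried were the probe set per gene, the filter on dim genes, scaling, variance modelling, array weights, a replicate block, fitting only the arrays compared, a fold threshold and leaving out each array. Same-numbered arrays deviated together at r over 0.1 in 2 of 6 pairs of groups, so the numbers were not taken to pair the arrays.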

Additional observations from a re-analysis of the deposited data

Results flagged for a closer look

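For several named genes around the network the level under DHT differed between times, by limma's test of the difference itself over all 19775 genes. With no vehicle array for each time, DHT and time in culture cannot be told apart in these differences. Of 61 members and named genes examined, 21 differed between 16 h and 4 h and 6 between 48 h and 16 h, and 0 of these were members. Over all genes, 3.05% and 0.829% were called in these comparisons. Many of the 61 were picked for large changes against vehicle or for their profile. The counts therefore describe that choice and are not a result about the network. Differences of genes other than members were not refitted with an array left out. The values here are log2 differences, the later time minus the earlier one, with the vehicle arrays dropping out of them. The vehicle arrays still entered the tests, through the estimate of the spread that all groups shared. Each gene's adjusted p lay below 0.05.

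Among MYC-induced genes, HK2 was higher at 16 h than at 4 h by 0.57, HSPE1, a mitochondrial chaperone, by 0.51 and LDHA by 0.43. PLK1 gave -0.67, MCM4 -0.55 and PLK4 -0.40 between the same times. DUSP2, a phosphatase that acts on ERK, gave -0.58 between 48 h and 16 h. Among MYC-repressed genes, NDRG1 was higher at 16 h than at 4 h by 2.48 and TXNIP by 0.48, while THBS1 gave -1.57 and CLU -0.91. CLU went lower again at 48 h, by -0.64. KAT5 gave -0.46, MITF -0.69 and SREBF1 0.46 at 16 h against 4 h, and TCF7L2 gave -0.72 at 48 h against 16 h.

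Of the genes whose profiles were most like that of MYC, NFKBIA gave 0.66 and EAF2 0.59 at 16 h against 4 h, and NRARP gave -0.57 at 48 h against 16 h. Of those like MXD1, GPR137C gave -1.55, APOBEC3B -0.88, ALAS1 -0.80 and DLGAP5 -0.70 at 16 h against 4 h. FKBP5 and AQP3, a water and glycerol channel, were higher at 16 h than at 4 h by 1.47 and 3.60, and at 48 h than at 16 h by 0.88 and 0.78.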

How the results depend on the processing

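Across 19 alternatives, the MYC rise against vehicle kept its call at all 3 times in each of the 18 that could be run; without _s_at and _x_at probe sets, MYC and MXD3 have no probe set. All other calls of members were lost in at least 2. Counts of members called at 4, 16 and 48 h against vehicle were 2, 4 and 3, with 5 by the F test. They became 1, 2 and 1, with 2 by the F test, when all probe sets were adjusted together, and 0, 2 and 1, with 2, without _s_at and _x_at probe sets. In that last setting 4 called changes turned sign, each read from another probe set: MYCN at 4 h gave 0.0421, MYCN at 48 h against 4 h -0.0633, SAP30 at 48 h -0.0725 and MCM4 at 48 h 0.0657. With the mean of a gene's probe sets the 4 h count was 1 and the F count 3, and with only the 4 arrays compared the 16 h count was 2. For 16 h against 4 h, 1 member was called in place of 0 without the dimmest 30% of genes, with arrays shifted to equal housekeeping signal, after a further quantile normalisation, and with a trended robust variance.

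Leaving out 1 array at a time, the counts ran from 1 to 2 at 4 h, 1 to 4 at 16 h, 1 to 3 at 48 h, 0 to 1 for each comparison between neighbouring times, and 2 to 6 for the F test. The replicate block lowered the 4 h count to 1, since the MYCN call was lost, and moved no other count of members by over 1.5 times. The arrays share only a number: r between same-numbered deviations lay between -0.24 and 0.20. MYC-induced genes called fell as low as 0, 8 and 4 of 54 at 4, 16 and 48 h, against 3, 25 and 11. Array weights are equal within a group of 2, so they cannot set a single array apart. Of 791 alternative values of changes that were not called, 38 turned sign.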
